A study of Mus musculus with 6 samples.

Results

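The 37 genes described here encode the core machinery of macroautophagy, from the kinase complex that starts an autophagosome to the factors that fuse it with the lysosome. They were listed by function and read out of 36137 genes that have transcripts in the deposited tables. RNA came from bone marrow-derived macrophages (BMDMs) in 2 groups of 3 libraries each. Drp1 KO BMDMs carried Drp1 fl/fl alleles and LysM-Cre+/-, and WT BMDMs carried LysM-Cre+/- with Drp1+/+, so both groups expressed Cre recombinase from the lysozyme M promoter, which is active in myeloid cells. DRP1, encoded by Dnm1l, is the GTPase that divides mitochondria. The study used young adult mice of both sexes and pooled marrow from the mice of a genotype, and whether the libraries came from separate pools is not stated. Cells were grown for 7 days in medium conditioned by L929 cells and then kept for 8 h in hypoxia with serum starvation (HSS; 2.1% oxygen per the labels), a culture model of ischemia. No library from normoxic, fed cells was analysed here, so each comparison below is between genotypes under HSS.

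Autophagy delivers cytoplasm and organelles to the lysosome inside a membrane that is built for the purpose. The ULK1 kinase complex responds to starvation and energy loss, a class III phosphatidylinositol 3-kinase (PI3K) complex marks the membrane with lipid, ATG9 and ATG2 supply membrane, and 2 ubiquitin-like reactions attach ATG8 proteins (the LC3 and GABARAP families) to it. In macrophages the same machinery clears damaged mitochondria and engulfed material. Many of these proteins are regulated after translation, and mRNA levels do not measure autophagic flux.

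Libraries held 23389488 to 32231206 estimated reads. The sum of Dnm1l transcripts was 72.7, 69.9 and 75.1 normalized counts (CPM, scaled to library size) in WT and 58.7, 60.7 and 66.3 CPM in Drp1 KO libraries. Every Drp1 KO library lay under every WT library, with a log2 fold change of -0.23 ± 0.0921 (SE; adjusted p = 0.248, edgeR; exact two-sided permutation p = 0.1, the smallest that 3 against 3 libraries can give). A gene sum does not separate transcripts with and without the deleted exons, so it is a weak check of the labels. All 8 macrophage markers were detected, with Lyz2 at 8173 to 9961 CPM and Adgre1 at 1210 to 1587 CPM, and their sum ran from 13391 to 14841 CPM in WT and from 11994 to 14425 CPM in Drp1 KO libraries. Of these markers 3 passed an adjusted p of 0.05 (edgeR), with groups that did not overlap. Fcgr1, an Fc receptor, was higher in Drp1 KO (log2 fold change 1.34, adjusted p = 0.000322), and Csf1r, the receptor for M-CSF, and Mertk, a receptor for dying cells, were lower (-0.52 for both, adjusted p = 0.0340 and 0.0236). Of 8 neutrophil markers 6 passed the filter on low counts, all 6 had a positive log2 fold change and none passed an adjusted p of 0.05, and their sum ran from 6.60 to 19.7 CPM in WT libraries and from 17.2 to 42.5 CPM in Drp1 KO. Summed markers of lymphocytes, fibroblasts and dendritic cells stayed at or below 5.83 CPM in every library. The part of other cell types, or of the macrophage marker differences, in the differences below was not tested, and in bulk RNA fewer cells of a type and less RNA per cell cannot be told apart.

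At the level of whole genes the median difference of the autophagy machinery between the genotypes was close to that of all genes. All 37 genes passed the filter of 10 counts in total. The median log2 fold change of Drp1 KO relative to WT was 0.01, beside 0.01 over the 18506 genes tested, with 19 autophagy genes higher and 18 lower. Single values ran from -0.50 to 0.45 (log2). None of the 37 reached an adjusted p under 0.05 (edgeR quasi-likelihood test, Benjamini-Hochberg over all genes tested), against 3.36% of all genes. DESeq2 called 2 of them (5.41%, beside 8.80% of all genes) and limma-voom 1 (2.70%, beside 3.37%), and 6 had an unadjusted p under 0.05 in edgeR, a share of 16.2% beside 16.4% of all genes. By the thresholds of the study (an absolute log2 fold change over 0.32 with an unadjusted p below 0.05), 4 of 37 (10.8%) passed, Atg12 and Atg14 as higher and Atg101 and Atg16l2 as lower, beside 12.7% of all genes. Groups did not overlap for 10 genes (27%), 5 higher and 5 lower in Drp1 KO, where 21.9% of all genes had groups that did not overlap.

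The intervals show how large a difference these libraries leave room for. The 95% interval of the log2 fold change lay within 0.32 of 0 for 16 genes, within 0.58 of 0, which is 1.5-fold, for 30 and within 1 of 0, which is 2-fold, for all 37. The median standard error was 0.109 for the autophagy genes and 0.209 for all genes tested (log2), and the median absolute log2 fold change was 0.117 against 0.226. The autophagy genes ranged from 114 to 8589 counts per library. Genes with far fewer counts are among all genes tested, and genes of similar level were not compared. The smaller median absolute log2 fold change therefore does not show that the autophagy genes changed less than other genes. The libraries numbered 1 of both genotypes lay on the same side of their group means for 24 of the 37 genes, those numbered 2 for 20 and those numbered 3 for 19. A fit with the library number as a block (the paired fit) called 12.0% of all genes and 3 of the 37 autophagy genes, Atg12, Atg101 and Gabarapl1, which is 8.11%. What a library number marks is not stated, and the pairing was taken from correlated deviations in these same counts. WT library 2 correlated more with Drp1 KO library 3 (0.339) than with Drp1 KO library 2 (0.218). The p-values of the paired fit are therefore no independent support for a difference.

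**Figure D1:**
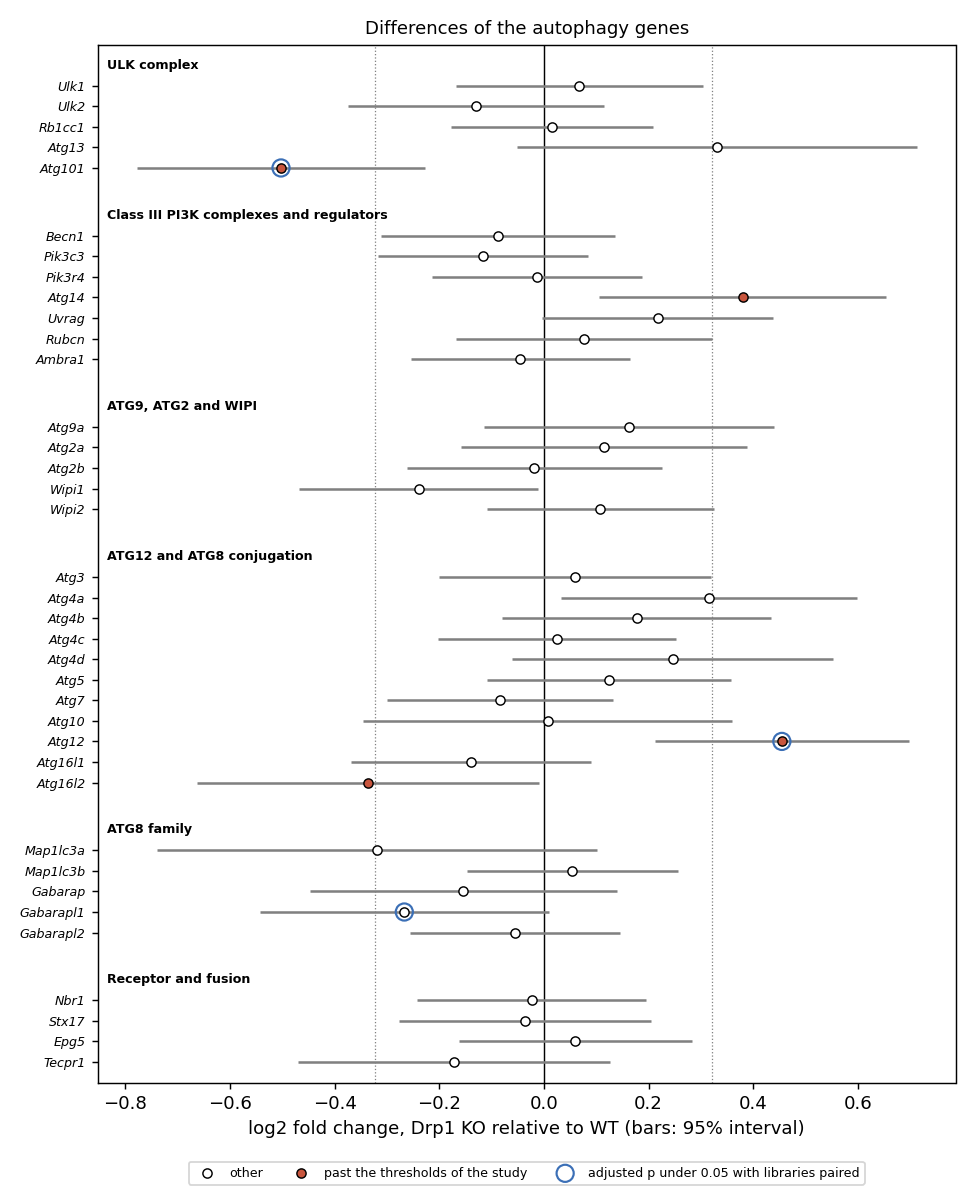
Log2 fold change of Drp1 KO relative to WT (points) with the 95% interval (bars) for each of the 37 autophagy genes, grouped by step. Dotted lines mark a log2 fold change of 0.32 in either direction, filled points mark the 4 genes past the thresholds of the study, and blue rings mark the 3 genes called in the paired fit.

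The ULK complex receives the starvation signal. The kinases and scaffold had small differences: Ulk1 (0.07), Ulk2 (-0.13) and Rb1cc1, which encodes the scaffold FIP200 (0.02), had log2 fold changes within 0.13 of 0 and groups that overlapped. Atg101, which encodes the subunit that stabilizes ATG13 (GRCm39 chr15:101181252-101188834), had 16.1, 13.9 and 13.9 CPM in WT and 10.2, 10.7 and 10.1 CPM in Drp1 KO libraries. All 3 Drp1 KO libraries were below the lowest WT library. Its log2 fold change was -0.50 ± 0.124 (SE), the lowest of the 37 genes, with an adjusted p of 0.0591 (edgeR), 0.0149 by DESeq2 and 0.0130 in the paired fit. Over 16 alternative settings that adjusted p ran from 0.0130 to 0.165 and the log2 fold change from -0.56 to -0.43. Atg13, the partner of ATG101, had 58.7, 37.9 and 39.8 CPM in WT and 63.4, 59.8 and 48.1 CPM in Drp1 KO libraries. Only WT library 1 lay within the range of the Drp1 KO libraries, and the log2 fold change of 0.33 ± 0.172 (SE) did not pass (adjusted p = 0.387, edgeR). Without WT library 1 it was 0.55 with an adjusted p of 0.0492, and without WT library 2 it was 0.20 with an adjusted p of 0.770 (edgeR). The exons of Atg13 share 3412 bases with Arhgap1 on the opposite strand, and the use of strand in the counting is not stated, so reads of that stretch are uncertain.

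The class III PI3K complex exists in forms that differ in one subunit. The subunits common to these forms had log2 fold changes of -0.09 for Becn1 (Beclin 1), -0.12 for Pik3c3 (the lipid kinase VPS34) and -0.01 for Pik3r4 (VPS15). Becn1 had -0.32 with protein-coding transcripts only (adjusted p = 0.423, edgeR), which hold 6.14% to 10.5% of its counts. Pik3c3 had 48.1, 45.3 and 49.9 CPM in WT and 44.2, 44.1 and 43.9 CPM in Drp1 KO libraries. The groups did not overlap, but the step was small (SE 0.0904; adjusted p = 0.608, edgeR). The subunits that set the forms apart had positive log2 fold changes. Atg14, which directs the complex to autophagosome formation (GRCm39 chr14:47778235-47808106), had 25.4, 20.8 and 23.8 CPM in WT and 29.1, 34.2 and 27.7 CPM in Drp1 KO libraries. Every Drp1 KO library was above every WT library. Its log2 fold change was 0.38 ± 0.123 (SE), a fold of 1.30, with an adjusted p of 0.144 in the main edgeR fit and 0.0501 in the paired fit, which is the lowest over 16 settings (highest 0.471).

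Uvrag, the subunit of the endosomal form, had 62.6, 52.8 and 58.5 CPM in WT and 71.0, 66.9 and 64.2 CPM in Drp1 KO libraries. These groups did not overlap either, and the log2 fold change was 0.22 ± 0.0992 (SE; adjusted p = 0.312, edgeR). It was 0.14 (edgeR adjusted p = 0.725) without WT library 2 and 0.05 (adjusted p = 0.912) with protein-coding transcripts only, which hold 35.6% to 51.1% of its counts. Rubcn, which encodes the inhibitor Rubicon (0.08), and Ambra1, a regulator of the complex (-0.05), had overlapping groups.

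Membrane supply and lipid sensing showed 1 gene with separate groups. Wipi1, which encodes a reader of the PI3K lipid, had 33.9, 35.8 and 35.2 CPM in WT and 32.4, 27.5 and 29.1 CPM in Drp1 KO libraries. All Drp1 KO libraries were lower, by -0.24 ± 0.103 (log2, SE; adjusted p = 0.279, edgeR). Its homolog Wipi2, which recruits ATG16L1, had a log2 fold change of 0.11. The scramblase gene Atg9a (0.16) and the lipid transfer genes Atg2a (0.12) and Atg2b (-0.02) had groups that overlapped.

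The conjugation systems hold the gene with the smallest p among the 37. ATG12 is a ubiquitin-like protein that is joined to ATG5 through ATG7 and ATG10, and the product works with ATG16L1 as the enzyme that attaches ATG8 proteins to lipid. Atg12 had 157, 131 and 134 CPM in WT and 178, 212 and 186 CPM in Drp1 KO libraries. The lowest Drp1 KO library lay above the highest WT library. The log2 fold change was 0.45 ± 0.109 (SE), a fold of 1.37, with an adjusted p of 0.0530 (edgeR), 0.0111 by DESeq2, 0.0462 by limma-voom and 0.0111 in the paired fit. Among 16 alternative settings 9 called it, with adjusted p from 0.0111 to 0.283 and a log2 fold change from 0.38 to 0.54. Atg12 shares 215 exon bases with Ap3s1 on the opposite strand. Ap3s1 was likewise above WT in each Drp1 KO library, at 192 to 199 CPM against 155 to 173 CPM (log2 fold change 0.26, adjusted p = 0.159, edgeR), and the part of the shared bases was not tested.

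No partner of Atg12 passed an adjusted p of 0.05 in the main fit. Atg5 (0.12), Atg7 (-0.08), Atg10 (0.01) and Atg3, the E2-like enzyme for ATG8 (0.06), had overlapping groups. Atg16l1 had 38.3, 33.4 and 33.4 CPM in WT and 32.4, 32.9 and 30.1 CPM in Drp1 KO libraries. The groups did not overlap, with a log2 fold change of -0.14 ± 0.103 (SE; adjusted p = 0.582, edgeR), and -0.07 without WT library 1. On length-scaled counts its direction turned, to 0.05. Atg16l2, a less studied paralog, had 7.89, 7.65 and 7.63 CPM in WT and 5.45, 6.69 and 6.16 CPM in Drp1 KO libraries. Each Drp1 KO library was lower and the log2 fold change was -0.34 ± 0.147 (SE; adjusted p = 0.288, edgeR). Its exons share 128 bases with Fchsd2 on the opposite strand, which was also below WT in each Drp1 KO library, at 82.4 to 92.4 CPM against 105 to 119 CPM (log2 fold change -0.37, adjusted p = 0.0669, edgeR). The part of these shared bases in the difference was not tested.

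The ATG4 proteases trim ATG8 proteins before conjugation and release them afterwards. All 4 had a positive log2 fold change and none passed. Atg4a had 28.8, 30.1 and 29.2 CPM in WT and 30.3, 42.3 and 37.1 CPM in Drp1 KO libraries. Drp1 KO library 1 stood only just above the WT libraries, and the log2 fold change was 0.32 ± 0.127 (SE; adjusted p = 0.246, edgeR). Leaving out Drp1 KO library 2 gave 0.20 (edgeR adjusted p = 0.596) and leaving out Drp1 KO library 1 gave 0.42 (0.0552). Atg4d had 8.06, 8.62 and 9.23 CPM in WT and 10.3, 11.2 and 9.26 CPM in Drp1 KO libraries, which were separate by the narrow margin between 9.23 and 9.26 (log2 fold change 0.25 ± 0.138, SE; adjusted p = 0.431, edgeR). Its direction turned, to -0.05, when only protein-coding transcripts were counted, and its exons share 2452 bases with Kri1 on the opposite strand. Atg4b (0.18) and Atg4c (0.02) had overlapping groups. Over the 11 conjugation genes 8 were higher and 3 lower, with a median of 0.06.

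ATG8 proteins coat the autophagosome and bind cargo receptors. Summed over transcripts, 4 of the 5 genes had a negative log2 fold change, with a median of -0.15, none passed an adjusted p of 0.05 and no pair of groups was separate. Gabarapl1 (GRCm39 chr6:129509725-129520544) had 155, 124 and 123 CPM in WT and 126, 109 and 99.5 CPM in Drp1 KO libraries. Drp1 KO library 1, the highest of its group, lay just above WT libraries 2 and 3. The log2 fold change was -0.27 ± 0.124 (SE; adjusted p = 0.323, edgeR), and -0.15 (adjusted p = 0.538) without WT library 1. With libraries paired by number, each Drp1 KO library was below the WT library of the same number, the log2 fold change was -0.26 and the adjusted p was 0.0363 (edgeR). Gabarap had 317, 265 and 293 CPM in WT and 309, 259 and 219 CPM in Drp1 KO libraries (log2 fold change -0.15). Map1lc3a, one of the least abundant genes of the list, had a log2 fold change of -0.32 (-0.57 with coding transcripts only, adjusted p = 0.143, edgeR), Gabarapl2 -0.06 and Map1lc3b, which encodes the LC3B protein used as a marker of autophagosomes, 0.05.

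None of the 4 receptor and fusion genes passed. Nbr1, a cargo receptor, had a log2 fold change of -0.02, Stx17, the SNARE of the autophagosome, -0.04, Epg5, a tether at the lysosome, 0.06 and Tecpr1, which binds the ATG12-ATG5 product, -0.17. Groups overlapped for each of them.

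**Figure D2:**
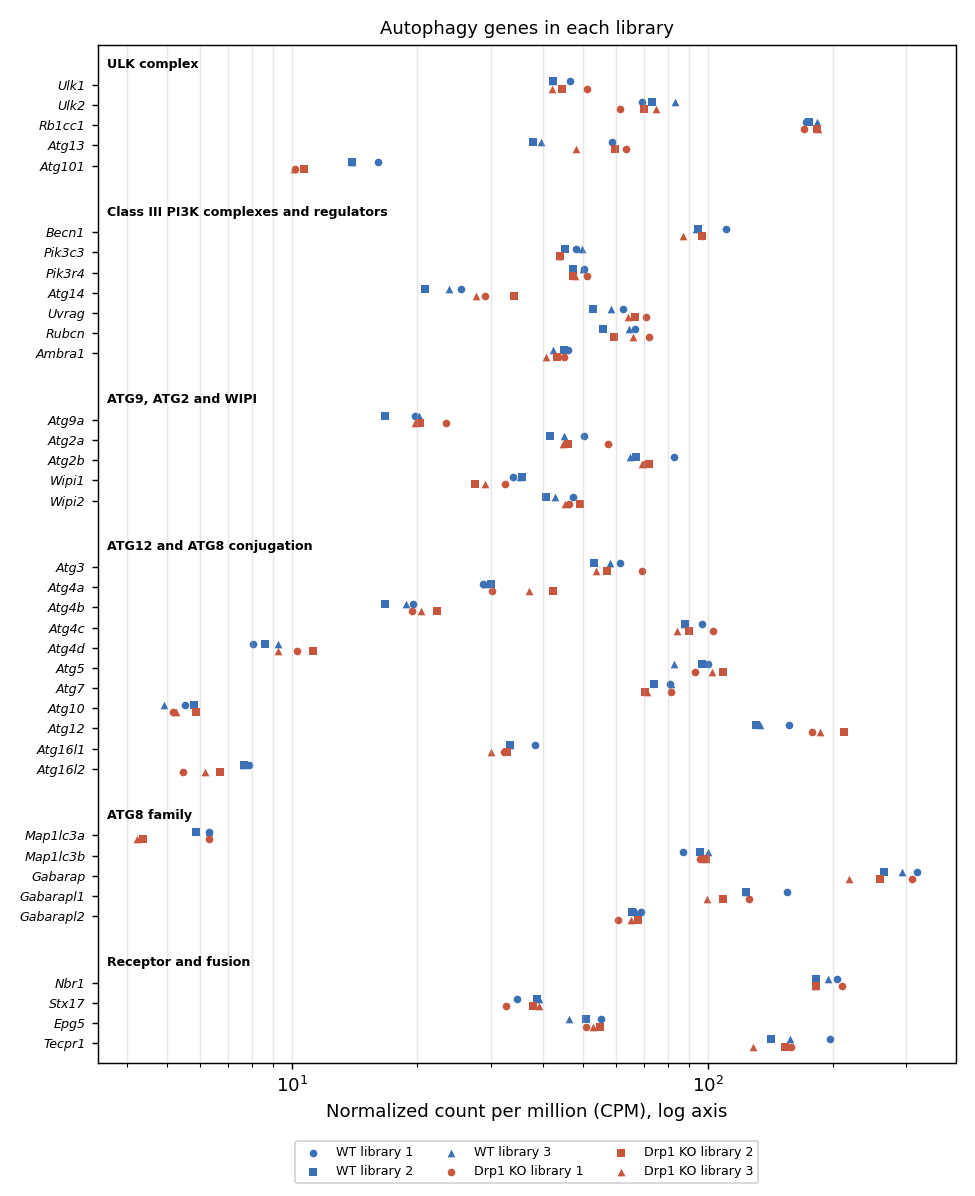
Normalized counts (CPM, log axis) of each autophagy gene in the 3 WT libraries (blue) and the 3 Drp1 KO libraries (red), with the symbol giving the library number. Atg12 and Atg14 stood higher and Atg101 and Atg16l2 lower in every Drp1 KO library, while most other genes overlapped.

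Levels between genes were compared as TPM, a transcript abundance scaled for length and library size. In WT BMDMs the order was led by the GABARAP genes, Gabarap at 409 ± 40.5 TPM and Gabarapl1 at 178 ± 41.8 TPM (SD, n = 3). Rb1cc1 at 126 ± 7.26 and Becn1 at 110 ± 12.2 TPM followed, and their ranges over the 3 libraries, 119 to 134 and 101 to 124 TPM, overlapped. Nbr1 at 85.7 ± 6.27, Map1lc3b at 78.0 ± 6.35 and Gabarapl2 at 77.8 ± 2.07 TPM came next and could not be put in order beyond their spread. The lowest were Atg4d at 4.79 ± 0.309, Atg10 at 7.03 ± 0.524, Epg5 at 7.71 ± 0.714 and Map1lc3a at 7.72 ± 0.707 TPM, where only Atg4d lay apart from its neighbours. Part of this order rests on transcripts not annotated as protein coding. Counting coding transcripts only, Gabarap at 282 and Gabarapl1 at 178 TPM still led in WT and Atg4d at 0.922 TPM was still the lowest, but Rb1cc1 stood at 39.3 and Becn1 at 3.13 TPM, places 11 and 35 of 37. The LC3 genes thus differed widely in level, with Map1lc3b at 78.0 and Map1lc3a at 7.72 TPM.

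Some genes differed more in TPM than in CPM. For Gabarapl1 the values were 226, 154 and 153 TPM in WT and 128, 111 and 105 TPM in Drp1 KO libraries, which did not overlap. On counts scaled by length, its log2 fold change was -0.55 (adjusted p = 0.159, edgeR) and -0.53 with libraries paired as well (adjusted p = 0.00585). For Atg7 TPM values were 49.9, 56.9 and 61.6 in WT and 37.1, 47.0 and 42.6 in Drp1 KO libraries, and the length-scaled log2 fold change was -0.32 (adjusted p = 0.193, and 0.0465 with libraries paired, edgeR). Ulk1 turned direction: it had 13.1, 13.5 and 13.9 TPM in WT and 11.4, 11.8 and 11.1 TPM in Drp1 KO libraries, with a length-scaled log2 fold change of -0.16 (adjusted p = 0.556, edgeR) against 0.07 on summed counts. These scales part where a gene's reads are assigned to transcripts of other lengths, as described next for the ATG8 family.

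**Figure D3:**
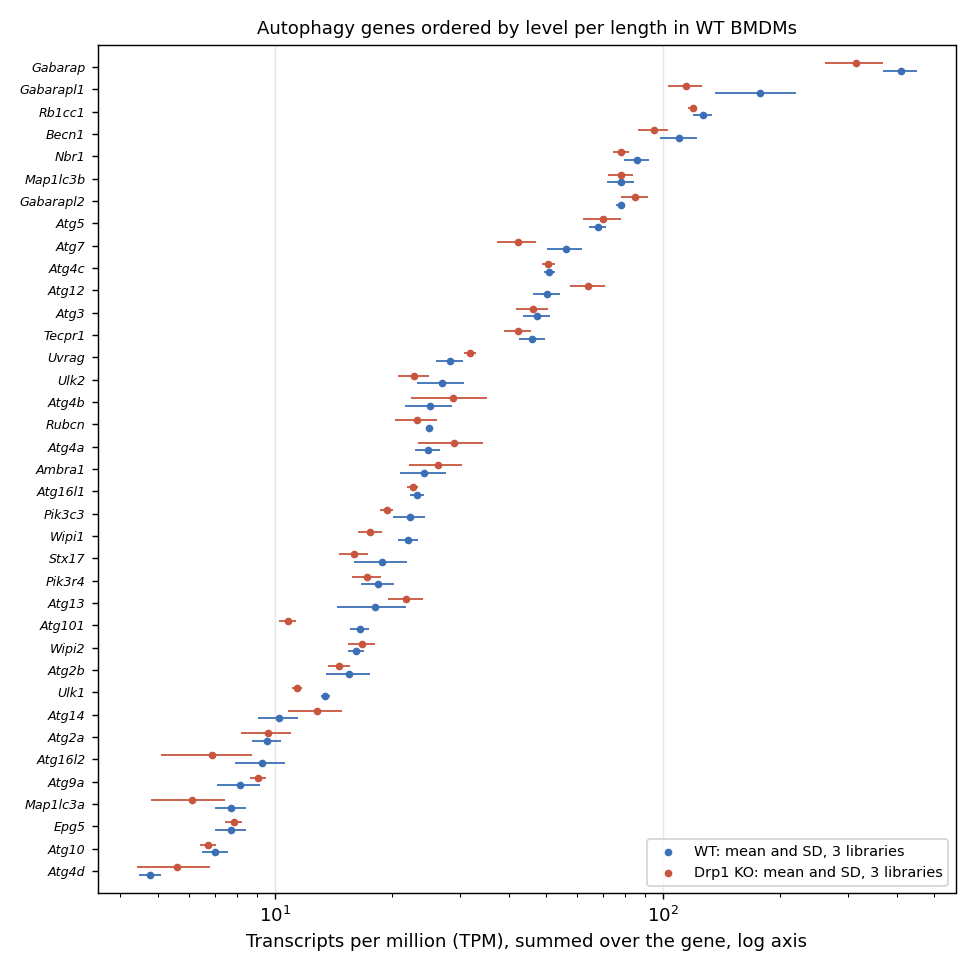
TPM of each autophagy gene (log axis; mean and SD of 3 libraries) in WT and Drp1 KO BMDMs, ordered by the WT mean. Gabarap and Gabarapl1 were the most abundant per length and Atg4d, Atg10, Epg5 and Map1lc3a the least abundant in WT.

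Single transcripts of these genes were tested as well. The transcript with the smallest p of all 223 tested from the 37 genes was Gabarap-204, annotated as a retained intron transcript. It keeps the second intron of the coding transcript Gabarap-201, and those 138 bases are in none of the other 3 Gabarap transcripts of the deposited tables. The next smallest belonged to Atg7-210 and Gabarapl2-203. Gabarapl2-203 has the same annotated type but starts inside the first intron of the coding transcript Gabarapl2-201 and runs through its end into the second exon. Its first 92 bases are intronic in Gabarapl2-201 and are in neither of the other Gabarapl2 transcripts. The sequences below are the stretches of GRCm39 that tell these transcripts from the coding ones. Both lie on the plus strand, and capitals mark the intron's first and last bases where the stretch includes them (GT at its start, AG at its end).
Gabarap intron 2, chr11:69883270-69883407: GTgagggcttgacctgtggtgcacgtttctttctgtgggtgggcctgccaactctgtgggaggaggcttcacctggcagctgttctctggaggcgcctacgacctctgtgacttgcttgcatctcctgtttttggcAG
Gabarapl2 end of intron 1, chr8:112667700-112667791: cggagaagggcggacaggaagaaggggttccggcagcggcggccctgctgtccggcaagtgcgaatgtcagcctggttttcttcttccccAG

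Gabarap-204 had 69.6, 54.2 and 79.7 CPM in WT and 29.4, 28.8 and 28.3 CPM in Drp1 KO libraries. The lowest WT library was above all Drp1 KO libraries, which lay close together. In a fit of single transcripts its log2 fold change was -1.23 ± 0.155 (SE) with an adjusted p of 0.0399 (edgeR), the one call among the 223, beside 0.332% of all 62020 transcripts tested. The call was lost when libraries were paired (adjusted p = 0.132) and when any library was left out (adjusted p from 0.0818 to 0.148). Of the gene's TPM, Gabarap-204 took 28.8%, 27.6% and 35.4% in WT and 12.8%, 16.3% and 18.9% in Drp1 KO libraries. The coding transcript Gabarap-201 took 52.2%, 50.3% and 45.4% in WT and 61.9%, 68.0% and 69.7% in Drp1 KO libraries. With only protein-coding transcripts counted, the log2 fold change of Gabarap was 0.06 in place of -0.15.

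The Gabarapl2 transcript had the opposite sign. Gabarapl2-203 had 4.74, 5.67 and 3.77 CPM in WT and 14.8, 12.0 and 16.1 CPM in Drp1 KO libraries. Every Drp1 KO library had more than the highest WT library, with a log2 fold change of 1.59 ± 0.224 (SE; adjusted p = 0.0515, edgeR, and 0.157 with libraries paired). It took 15.9%, 19.8% and 13.3% of the gene's TPM in WT and 44.9%, 35.7% and 45.2% in Drp1 KO libraries, while the coding Gabarapl2-201 had 84.2%, 79.7% and 86.6% against 55.1%, 64.2% and 54.7%. Counting protein-coding transcripts only, the log2 fold change of Gabarapl2 was -0.31 (adjusted p = 0.150, edgeR), and on length-scaled counts of all transcripts it was 0.20.

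Neither of the main coding transcripts of Gabarapl1 passed in the fit of single transcripts (edgeR adjusted p = 0.342 for Gabarapl1-204 and 0.800 for Gabarapl1-201). Gabarapl1-204 held 60.6%, 48.2% and 43.9% of TPM in WT and 39.3%, 36.1% and 36.8% in Drp1 KO libraries, and Gabarapl1-201 was higher in each Drp1 KO library, at 58.7% to 61.6% against 38.5% to 54.9%. Map1lc3a-203, which has no defined coding sequence, held 18.5%, 10.9% and 29.1% in WT and 41.7%, 31.9% and 39.1% in Drp1 KO libraries, on only 138 to 185 counts of the whole gene per library (edgeR adjusted p = 0.735). Map1lc3b-201 held 46.9% to 54.0% in WT and 46.4% to 50.1% in Drp1 KO BMDMs, which overlapped.

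**Figure D4:**
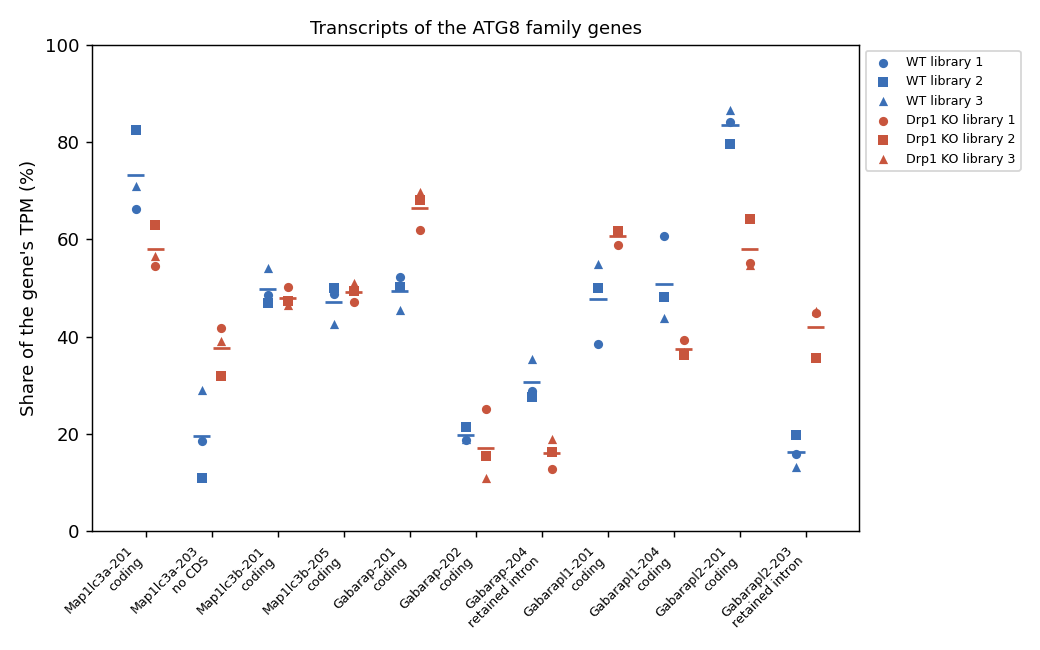
Share of each ATG8 family gene's TPM held by its transcripts (percent) in WT (blue) and Drp1 KO (red) libraries, with the line at the group mean and the annotated transcript type under each name. Gabarap-204 was lower and Gabarapl2-203 higher in every Drp1 KO library, and the Map1lc3b transcripts overlapped.

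These shares were read against the same count over all genes. Among transcripts with a mean share of 10% to 90% in genes with at least 100 counts on average, groups did not overlap for 19 of 75 (25.3%) in the autophagy genes and for 24.0% of 18705 in all genes. With a difference of at least 10 percentage points as well, there were 13 of 75 (17.3%) against 12.4%, and 8 of those 13 belonged to 4 of the 5 ATG8 genes. Shares within a gene have a fixed total, so a rise of a transcript goes with a fall of others. In each of these 4 genes a rise stood beside a fall, so the 8 transcripts are not separate findings. The share of all genes with such a transcript was not counted. The ATG8 family was singled out here after these values were seen. Outside it, Ulk1-201 held 72.1%, 62.0% and 64.8% of TPM in WT and 90.8%, 75.7% and 77.4% in Drp1 KO libraries, and Atg7-205 held 28.9%, 32.9% and 34.7% in WT and 5.33%, 23.0% and 9.07% in Drp1 KO libraries. Atg7-210, annotated as coding, had 1.32, 1.45 and 1.70 CPM in WT and 9.50, 7.40 and 4.79 CPM in Drp1 KO libraries (log2 fold change 2.27 ± 0.323, SE; adjusted p = 0.0515, edgeR). Its length in the files differs from that in the annotation used here, so its structure is not described.

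Retained intron transcripts as a class held 7.24%, 8.03% and 8.66% of the autophagy genes' counts in WT and 6.30%, 6.27% and 7.08% in Drp1 KO libraries, which did not overlap. Without Gabarap the shares were 5.36% to 6.47% and 5.72% to 6.50%, which overlapped, and over all genes they were 3.38% to 4.02% and 3.46% to 3.99%. Leaving out this 1 gene thus ended the separation of the groups. Transcript values depend on how kallisto divides reads that fit several transcripts, and the error of that division is not in the standard errors given here.

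A further 52 genes of the pathway, among them cargo receptors, regulators, fusion proteins and accessory factors, were read from lists, and all were tested. Of these, 28 were higher and 24 lower, with a median log2 fold change of 0.03, and 8 (15.4%) passed the thresholds of the study, beside 12.7% of all genes. An adjusted p of 0.05 was passed by 1 (1.92%) in the main fit, beside 3.36% of all genes, and by 11 (21.2%) in the paired fit, beside 12.0%. The gene called in the main fit was Trp53inp1, which encodes an LC3-binding stress protein induced by p53. It had 118, 111 and 112 CPM in WT and 140, 170 and 161 CPM in Drp1 KO libraries, which were all higher. Its log2 fold change was 0.47 ± 0.0992 (SE; adjusted p = 0.0329, edgeR). Leaving out WT library 2 or 3 ended the call (edgeR adjusted p = 0.196 and 0.175), and so did leaving out Drp1 KO library 2 or 3 (edgeR adjusted p = 0.145 and 0.0983). It was also lost with length-scaled counts (edgeR adjusted p = 0.0634) and with coding transcripts only, where the log2 fold change was 0.17 (edgeR adjusted p = 0.584).

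Among cargo receptors 5 had a positive and 5 a negative log2 fold change, and the smallest p belonged to Ccpg1, a receptor for autophagy of the endoplasmic reticulum. Ccpg1 had 110, 119 and 118 CPM in WT and 97.2, 86.7 and 88.1 CPM in Drp1 KO libraries (log2 fold change -0.35 ± 0.0909, SE; adjusted p = 0.0699, edgeR, and 0.0157 in the paired fit). Retreg1, another such receptor, had 83.1, 69.1 and 82.0 TPM in WT and 113, 98.9 and 121 TPM in Drp1 KO libraries, which did not overlap. Its log2 fold change was 0.59 on length-scaled counts (adjusted p = 0.0323, edgeR) and 0.15 on summed counts (adjusted p = 0.507), and it is given after its values were seen. The list of mTORC1, which restrains ULK1 in fed cells, holds its subunits together with activators and inhibitors of it, and 7 of these genes had a positive and 6 a negative log2 fold change. Rheb, the GTPase that activates mTORC1, had 62.4, 53.2 and 57.5 CPM in WT and 85.1, 76.8 and 66.0 CPM in Drp1 KO libraries (log2 fold change 0.40 ± 0.115, SE; adjusted p = 0.103, edgeR, and 0.0127 in the paired fit). Every Drp1 KO library was above the WT libraries.

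MiT/TFE and FOXO transcription factors drive autophagy and lysosome genes, and their list also holds Zkscan3, a repressor of such genes. Zkscan3 (0.02) and Foxo1 (0.09) had a positive log2 fold change, and the other 5 a negative one. Foxo3 had 420, 361 and 395 CPM in WT and 327, 283 and 283 CPM in Drp1 KO libraries, and its log2 fold change was -0.40 ± 0.103 (SE; adjusted p = 0.0726, edgeR, and 0.00494 in the paired fit). Fusion genes were 5 higher and 6 lower, and Plekhm1, an adaptor for the HOPS tether, had the smallest p there (log2 fold change 0.23; adjusted p = 0.394, edgeR). Accessory factors were 9 higher and 2 lower, with a median of 0.18. The paired fit also called Vmp1, Wac and Tollip as higher and Optn and Calcoco1 as lower.

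Motifs of these factors, and a site for C/EBP and ATF factors, were counted in the 250 bases before the start of the canonical transcript on both strands. The E-box CACGTG, which MiT/TFE factors bind, was in 4 of 37 autophagy promoters (Epg5, Gabarap, Rubcn and Tecpr1; 10.8%) and in 6.26% of 21757 promoters of protein-coding genes. The longer TCACGTGA, which contains it, was in 1 (Epg5) against 0.754% of all. The forkhead motif GTAAACA was in 1 (Becn1; 2.70%) against 2.72%, and TGATGCAA, a composite site for C/EBP and ATF factors, was in none of the 37 windows against 0.887%. None of these 5 genes passed an adjusted p of 0.05.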

How the data were processed

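Poly(A) RNA of 3 WT and 3 Drp1 KO BMDM libraries was sequenced with paired-end reads. The authors quantified reads with kallisto 0.46.1 on Ensembl transcripts of GRCm39 and deposited estimated counts and TPM values per transcript. These deposited estimated counts were not scaled between libraries, and the deposited TPM values sum to the same total in each. The labels name a stranded kit and the paper's methods do not, and the use of strand in kallisto is not stated. The labels and the paper also differ on oxygen, L929 medium and the RNA extraction reagent. The members and all gene lists were chosen with earlier results of these data known.

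Of 116873 transcripts, 116159 (99.4%) were matched by identifier to 36137 genes of GENCODE M39 (GRCm39), and those not matched held 0.542% to 0.575% of each library's counts. Counts were summed per gene and rounded. Genes with at least 10 counts in total were tested with edgeR 4.0.16 (R 4.3.3, TMM, quasi-likelihood test, no covariate), with Benjamini-Hochberg adjustment over all genes. The standard error is the log2 fold change divided by the root of F. A level of 3 counts was 0.0936 to 0.129 CPM. WT libraries held 24269850 to 28650715 estimated reads and Drp1 KO libraries 23389488 to 32231206. The test was checked on simulated data. Where libraries share animals, p-values measure only the spread between these libraries.

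Same-numbered libraries deviated together from their group means (correlations 0.539, 0.218 and 0.352 over 12248 genes; other pairs -0.481 to 0.339), and on that evidence alone libraries of the same number were treated as pairs. The 16 alternatives included DESeq2 1.42.0, limma-voom (limma 3.58.1), other scalings and filters, length-scaled counts, coding transcripts only, the block and leaving out each library. The fit of single transcripts was added after seeing the data. All 37 genes were to be named, with full statistics for those called, past the thresholds of the study or with groups that did not overlap. From each related list, genes with an adjusted p under 0.05 were to be named, else the one with the smallest p. Gabarapl1, Atg13, Ddit4 and single transcripts were given full values after being seen. Promoter and intron sequences were read from GRCm39, and no protein sequence was used here.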

Additional observations from a re-analysis of the deposited data

How the results depend on the processing

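The count of autophagy genes with an adjusted p under 0.05, 0 in the main edgeR fit, was 2 with DESeq2, 1 with limma-voom, 2 with library size only, 1 with filterByExpr, 2 with no filter beyond 1 count, 1 with protein-coding transcripts only, 3 with the replicate block and 4 with the replicate block and length-scaled counts, and was at most 2 when single libraries were omitted. The share of all genes called was 3.36% in the main fit and, in the order of these settings, 8.80%, 3.37%, 3.95%, 4.67%, 4.43%, 4.06%, 12.0%, 9.36% and at most 4.96%, beside which 1 of 37 is 2.70%, 2 are 5.41%, 3 are 8.11% and 4 are 10.8%. Those calls were of Atg12, Atg101, Gabarapl1, Atg7 and Atg13. Leaving out WT library 1 gave the calls of Atg12 and Atg13, and leaving out Drp1 KO library 1 that of Atg12. Related genes, 1 in the main fit, gave 7 (13.5% of 52) with DESeq2, 3 with library size only, 2 with filterByExpr, 5 (9.62%) with no filter, 11 (21.2%) with the replicate block, 6 (11.5%) with the block and length-scaled counts, and 0 to 3 with a library left out. That 1 call was of Trp53inp1 in the main fit, of Retreg1 with length-scaled counts and of Foxo3 with coding transcripts only. The single autophagy transcript called became 0 with the replicate block and 0 with any library left out. The count by the study's thresholds stayed at 3 to 6, the median log2 fold change at -0.026 to 0.022, and Dnm1l at -0.276 to -0.202 under every setting. The replicate block gave the calls of Atg12, Atg101 and Gabarapl1, and with length-scaled counts also that of Atg7. The cause of these changes was not tested.

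Direction turned 42 times in 18 of the 37 genes, never with an adjusted p under 0.05. With length-scaled counts, without and with the block, the log2 fold changes were -0.158 and -0.159 for Ulk1, -0.015 and -0.025 for Rubcn, 0.198 and 0.196 for Ambra1, 0.047 and 0.048 for Atg16l1, and 0.204 and 0.204 for Gabarapl2, and Atg2b had 0.004 with the block. With protein-coding transcripts only they were 0.026 for Pik3r4, -0.054 for Atg4d, -0.037 for Atg10 and 0.058 for Gabarap. Atg10 also had -0.003 with DESeq2, -0.004 with median-of-ratios size factors, -0.003 with library size only and -0.005 with filterByExpr. With a library left out the ranges were -0.026 to 0.131 (Ulk1), -0.007 to 0.040 (Rb1cc1), -0.058 to 0.014 (Pik3r4), -0.012 to 0.153 (Rubcn), -0.017 to 0.185 (Atg2a), -0.098 to 0.096 (Atg2b), -0.067 to 0.137 (Atg3), -0.069 to 0.092 (Atg4c), -0.073 to 0.044 (Atg10), -0.003 to 0.089 (Map1lc3b), -0.106 to 0.019 (Nbr1), -0.091 to 0.028 (Stx17) and -0.018 to 0.123 (Epg5). With 3 libraries a group, Atg12 (0.455, SE 0.109) and Atg101 (-0.502, SE 0.124) did not pass in the main fit, while Trp53inp1 (0.465, SE 0.0992) did. Differences of this size can thus go uncalled.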
